A study of Mus musculus with 6 samples.

Results

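The transcription factors *Otx2*, *Pou3f1*, *Zic2*, *Zic5*, *Sox3*, *Sox4*, *Foxd3* and *Grhl2* and the growth factor gene *Fgf5* mark the epiblast once it has left the naive state. These 9 genes were chosen by name and looked up by Ensembl identifier, with the version dropped, among the 22380 identifiers listed for each library. Identifiers were found for 8 of the 9, and *Pou3f1* is not analysed here. RNA-Seq was compared between 3 *Ctrl* and 3 *Tet iTKO* mouse embryonic stem cell (mESC) lines. By the study's general account, each line came from a different embryo. *Ctrl* lines were CreERT2 wt/ki, a tamoxifen-dependent Cre driven by the ubiquitin C promoter, and also Gt(ROSA)26Sor<tm1Ytchn>/J wt/ki, an H2B-EGFP reporter that Cre switches on. *Tet iTKO* lines carried both of these alleles and, in addition, floxed alleles of *Tet1*, *Tet2* and *Tet3* (fl/fl). Both groups received 1 µM 4-hydroxytamoxifen (4-OHT, given as tamoxifen in the labels) for 2.5 days and were grown for 4 more days, in medium with CHIR99021, an inhibitor of GSK3, and PD0325901, an inhibitor of MEK, on mouse embryonic fibroblast feeders. At day 6.5, live cells positive for CD326 (EPCAM) and GFP and negative for the feeder marker Thy1.2 were sorted. The study's legend for these libraries also names SSEA1 as a positive sort marker. GFP reports that Cre acted on the reporter, not that all 6 *Tet* alleles of a cell were lost.

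Naive pluripotency is the state of the preimplantation epiblast, and mESC keep it when MEK and GSK3 are inhibited. After implantation the epiblast passes through a formative state, in which it gains competence for germ layer and germ cell fates, to a primed state, in which genes of the later lineages begin to be expressed. OTX2 directs OCT4 to new enhancers during this exit, FOXD3 and GRHL2 take part in rearranging enhancers, and FGF5 is a classical marker of the postimplantation epiblast. TET enzymes oxidise 5-methylcytosine, mostly at CpG dinucleotides.

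Windows of 250 bases before the transcription start were held in the RefSeq table (GRCm38.p6) for 5 of the 9 genes, *Otx2*, *Fgf5*, *Zic5*, *Sox4* and *Foxd3*. They are shown for *Otx2* and *Sox4*, the members that passed the test between groups, and for *Fgf5* and *Foxd3*, whose windows held more CpG. The letters searched were CG, which read the same on both strands, and they are in capitals.
*Otx2*, chr14:48667645-48667894, minus strand: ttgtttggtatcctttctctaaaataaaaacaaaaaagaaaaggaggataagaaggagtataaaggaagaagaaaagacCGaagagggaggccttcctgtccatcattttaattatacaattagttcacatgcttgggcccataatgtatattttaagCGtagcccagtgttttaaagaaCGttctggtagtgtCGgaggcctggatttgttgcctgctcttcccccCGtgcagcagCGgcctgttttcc
*Sox4*, chr13:28953714-28953949, minus strand: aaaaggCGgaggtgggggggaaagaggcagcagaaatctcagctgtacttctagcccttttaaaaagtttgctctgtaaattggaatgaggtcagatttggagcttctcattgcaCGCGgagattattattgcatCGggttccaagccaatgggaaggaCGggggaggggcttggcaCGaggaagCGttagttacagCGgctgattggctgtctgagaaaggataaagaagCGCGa
*Fgf5*, chr5:98253934-98254183, plus strand: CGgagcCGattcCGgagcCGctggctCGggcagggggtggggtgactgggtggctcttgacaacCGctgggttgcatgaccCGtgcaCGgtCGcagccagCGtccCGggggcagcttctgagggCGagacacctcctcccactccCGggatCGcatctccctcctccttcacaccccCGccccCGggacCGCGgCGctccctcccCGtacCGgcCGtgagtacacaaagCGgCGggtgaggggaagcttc
*Foxd3*, chr4:99656049-99656298, plus strand: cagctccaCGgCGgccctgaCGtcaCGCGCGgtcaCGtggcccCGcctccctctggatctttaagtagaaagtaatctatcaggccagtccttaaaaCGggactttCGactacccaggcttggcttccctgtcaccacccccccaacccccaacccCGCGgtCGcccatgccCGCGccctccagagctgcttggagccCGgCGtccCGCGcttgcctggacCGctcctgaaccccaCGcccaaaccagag
The stretches read 5′ to 3′ on the strand of the gene, and that of *Sox4* was shortened to 236 bases to leave out an annotated exon. The *Otx2* window held 6 CpG, and 65.9% of 19276 windows held as many or more. The windows at the other 3 annotated *Otx2* starts held between 8 and 14. The *Fgf5* window held 24 CpG and the *Foxd3* window 21, numbers reached by 16.7% and 23.2% of windows, whereas the full *Sox4* window held 11, which is the median of all windows. Methylation of these windows was not analysed here.

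The deposited values are read counts divided by a size factor for each library and rounded, here called normalized counts. They summed to between 3964824 and 4219665 per library, and more genes were above 0 in *Tet iTKO* (14024 to 14363) than in *Ctrl* libraries (13431 to 13539). All 6 libraries expressed the mESC genes *Pou5f1* (4318 to 5804 normalized counts) and *Sox2* (1086 to 1224). *Fut4*, the gene of an enzyme that can make the SSEA1 epitope, had 0 to 2, which does not measure the epitope itself. Over the whole gene, limma gave log2 fold changes of 0.21 for *Tet1*, 0.14 for *Tet2* and -1.67 for *Tet3*, with an adjusted p of 0.026, 0.43 and 0.035. After correction for GC content and length the adjusted p of *Tet1* was 0.081. Such whole-gene values do not set floxed exons apart and so do not check the deletion. *Ddx3y*, *Eif2s3y*, *Kdm5d* and *Uty*, which are Y-linked, were above 0 in all 6 libraries, and of these *Eif2s3y* passed the test (log2 fold change -0.995, limma adjusted p = 5.6e-09). Of 14 feeder fibroblast markers, 7 were tested and 5 were higher in *Tet iTKO* lines, where 16.4% of all genes tested were higher, with a summed level of 328 to 346 normalized counts in *Ctrl* and 579 to 652 in *Tet iTKO* lines. *Mmp2*, *Col3a1*, *Col1a2* and *Fbln2* rose the most, by 1.52 to 1.15 on the log2 scale. The call of *Fbln2* was lost after correction and without *Ctrl* replicate 1, *Tet iTKO* replicate 1 or *Tet iTKO* replicate 3. *Thy1*, the gene of the marker that was sorted against, had 30 to 46 in *Ctrl* and 23 to 47 in *Tet iTKO* lines. *Thy1* and *Loxl1* did not pass (log2 fold change -0.19 and 0.05, limma adjusted p = 0.69 and 0.95). The 7 markers not tested all overlapped between groups. Of these, *Dcn*, *Lum* and *Pdgfrb* had lower means in *Tet iTKO* lines, and *Pdgfra*, *Postn*, *Twist1* and *Twist2* higher ones. *Postn* and *Twist2* were at or under 3 in every library. The log2 fold changes of all genes correlated with GC content (Spearman's rho 0.26) and with transcript length (0.29) across 10457 genes, which are not independent replicates, and values from a fit corrected for both are given beside the results that it changed most. Differences were tested with limma on log2(normalized count + 1) for 10524 genes whose mean reached 10, p-values were adjusted after Benjamini and Hochberg, and fold changes are *Tet iTKO* over *Ctrl* on that scale.

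*Otx2* rose and *Sox4* fell in *Tet iTKO* mESC, and the other 4 tested factors did not pass the test. *Fgf5* and *Sox3* lay under the mean of 10 and were not tested across genes. Of the 6 tested factors, 1 was thus higher and 1 lower (adjusted p under 0.05), or 16.7% in each direction, where 16.4% of all genes tested were higher and 18.4% lower. The members' shares are therefore close to those of all genes. No factor also reached a log2 fold change of 1 in size, as 4.95% of all genes did upwards and 1.3% downwards. The median log2 fold change of the 6 was 0.28 beside 0.01 for all genes tested, and 0.01 beside 0.01 after correction for GC content and length. In bulk RNA, fewer or more cells that express a gene cannot be told apart from less or more RNA per cell.

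**Figure D1:**
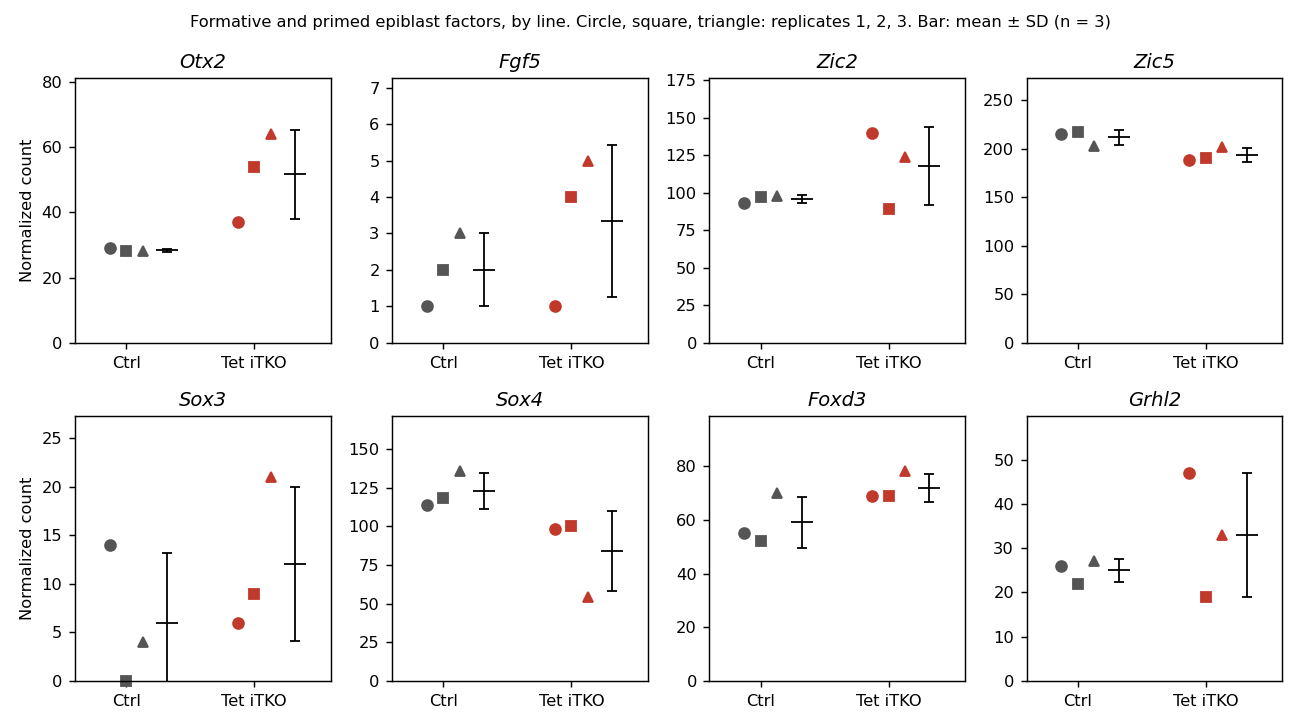
Normalized counts (vertical axes, each from 0) of the 8 epiblast factors found, in 3 *Ctrl* (grey) and 3 *Tet iTKO* (red) lines. The groups do not overlap for *Otx2* (28 to 29 against 37 to 64), *Sox4* (114 to 136 against 54 to 100) and *Zic5* (203 to 217 against 188 to 202).

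*Fgf5* (ENSMUSG00000029337.1), the ligand among the 9 genes, showed 1, 2 and 3 normalized counts across *Ctrl* lines, against 1, 4 and 5 across *Tet iTKO* lines. It was at or near the smallest level that can be told from 0, taken as 3, in every line, and lines of both groups overlapped (exact two-sided permutation p = 0.6, where 0.1 is the smallest that 3 lines against 3 can give). A difference in *Fgf5* was not detectable at this depth. *Fgf5* had the lowest mean of the 8 genes in both groups.

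*Otx2* (ENSMUSG00000021848.9) encodes a homeodomain protein that is needed for the orderly transition to the formative state. It had 29, 28 and 28 normalized counts across *Ctrl* lines, against 37, 54 and 64 across *Tet iTKO* lines, so that every *Tet iTKO* line was above every *Ctrl* line. The means were 28.3 ± 0.58 (SD, n = 3) and 51.7 ± 13.7 (SD, n = 3), and the log2 fold change was 0.81 (standard error 0.31, 95% interval 0.19 to 1.43, limma adjusted p = 0.036). The *Ctrl* lines varied less than counting error alone would give, since the square root of their mean is 5.32, while the *Tet iTKO* lines varied more (square root 7.19). The call was lost in 5 of 6 fits that each left out a line, with an adjusted p of 0.054 without *Ctrl* replicate 1, 0.064 without *Ctrl* replicate 2, 0.058 without *Ctrl* replicate 3, 0.12 without *Tet iTKO* replicate 2 and 0.19 without *Tet iTKO* replicate 3 (limma). Corrected for GC content and length, the log2 fold change was 0.94 (limma adjusted p = 0.019). The groups of *Otx2* did not overlap, as was the case for 21.2% of all genes tested in this direction. A lincRNA gene, *Otx2os1*, lies over *Otx2* on the opposite strand in the GENCODE M21 annotation, as other genes do over *Sox4* and *Grhl2*. The library protocol does not keep the strand, so reads of such pairs cannot be told apart where they overlap.

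*Sox4* (ENSMUSG00000076431.3) encodes a SoxC factor with roles in progenitors of many lineages. Its values were 114, 118 and 136 normalized counts across *Ctrl* lines, against 98, 100 and 54 across *Tet iTKO* lines. All *Tet iTKO* lines lay below all *Ctrl* lines, and *Tet iTKO* replicate 3 was far below its 2 fellow lines. The means were 123 ± 11.7 (SD, n = 3) and 84.0 ± 26.0 (SD, n = 3), and the log2 fold change was -0.59 (standard error 0.20, 95% interval -1.002 to -0.18, limma adjusted p = 0.022). Without *Tet iTKO* replicate 3 the log2 fold change was -0.30 (limma adjusted p = 0.25), and without *Ctrl* replicate 3 the adjusted p was 0.082, so that either line decides the call. *Sox4* has 1 exon, and after correction for GC content and length its log2 fold change was -0.74 (limma adjusted p = 0.0052). Of all genes tested, 22.9% had groups that did not overlap in this direction.

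*Zic2* and *Zic5* encode zinc finger factors of 1 family and lie 9.76 kb apart on chromosome 14 in GRCm38. *Zic2* (ENSMUSG00000061524.7) showed 93, 97 and 98 normalized counts across *Ctrl* lines, against 140, 89 and 124 across *Tet iTKO* lines, with *Tet iTKO* replicate 2 under every *Ctrl* line and the other 2 above. Its log2 fold change was 0.27 (95% interval -0.11 to 0.64, limma adjusted p = 0.28), and 0.047 after correction for GC content and length (limma adjusted p = 0.89). It was 0.13 without *Tet iTKO* replicate 1 and 0.45 without *Tet iTKO* replicate 2, neither of which passed. *Zic5* (ENSMUSG00000041703.7) showed 215, 217 and 203 across *Ctrl* lines, against 188, 190 and 202 across *Tet iTKO* lines, which do not overlap but meet at 203 and 202. Its log2 fold change of -0.13 (95% interval -0.38 to 0.12) did not pass the test (limma adjusted p = 0.45), so that a separation of the lines here came with a mean of 91.3% of the *Ctrl* value. After correction it was -0.25 (limma adjusted p = 0.15). The log2 ratio of *Zic2* to *Zic5* was -1.20, -1.15 and -1.04 in *Ctrl* lines and -0.42, -1.09 and -0.70 in *Tet iTKO* lines. The mean ratios were -1.13 ± 0.08 (SD, n = 3) and -0.74 ± 0.33 (SD, n = 3), a difference of 0.40 (exact two-sided permutation p = 0.2, smallest possible 0.1). *Tet iTKO* replicate 2, at -1.09, lay within the range of the *Ctrl* lines.

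*Foxd3* (ENSMUSG00000067261.3), a forkhead repressor and activator of enhancers that mESC also need for self-renewal, showed 55, 52 and 70 normalized counts across *Ctrl* lines, against 69, 69 and 78 across *Tet iTKO* lines. Only *Ctrl* replicate 3 reached into the range of the *Tet iTKO* lines. The log2 fold change was 0.29 (95% interval -0.17 to 0.76, limma adjusted p = 0.34), and it became -0.03 after correction for GC content and length (limma adjusted p = 0.95). *Foxd3* has a transcript GC content of 65.1%, against 46.8% for *Otx2*.

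*Grhl2* (ENSMUSG00000022286.9), a Grainyhead factor that opens enhancers of epithelial genes, showed 26, 22 and 27 normalized counts across *Ctrl* lines, against 47, 19 and 33 across *Tet iTKO* lines, of which replicate 2 was the lowest of all 6. Its log2 fold change of 0.30 had a 95% interval from -0.44 to 1.05 (limma adjusted p = 0.56). It was 0.009 without *Tet iTKO* replicate 1, 0.64 without *Tet iTKO* replicate 2 and 0.17 after correction, none of which passed. *Grhl2* itself is an epithelial gene, and 6 of the 10 epithelial markers tested were higher and 1 lower in *Tet iTKO* lines, beside 16.4% and 18.4% of all genes tested, with a summed level of 2353 to 2488 normalized counts in *Ctrl* and 2867 to 3069 in *Tet iTKO* lines. The keratin genes *Krt8* and *Krt18* rose by 2.60 and 2.33 on the log2 scale, the claudin gene *Cldn6* by 1.40 and the splicing factor gene *Esrp1* by 1.20, and *Spint1*, a protease inhibitor gene, fell by 0.28. *Cdh1*, the gene of E-cadherin, was at 0.14, or 0.030 after correction, and did not pass (limma adjusted p = 0.079 and 0.77). The part of this marker list in the values of *Grhl2* was not tested.

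*Sox3* (ENSMUSG00000045179.7), an X-linked SoxB1 gene of the epiblast and early neural tissue, showed 14, 0 and 4 normalized counts across *Ctrl* lines, against 6, 9 and 21 across *Tet iTKO* lines. The *Ctrl* lines ranged from 0 to a value above 2 of the 3 *Tet iTKO* lines. The log2 difference was 1.45, and the lines of both groups overlapped (exact two-sided permutation p = 0.4). Single lines set its size, since it was 2.37 without *Ctrl* replicate 1 (exact permutation p = 0.1, the smallest possible) and 0.41 without *Ctrl* replicate 2 (exact permutation p = 0.8). For *Sox2*, the SoxB1 gene that mESC depend on, the log2 fold change was -0.05, and 0.09 after correction (limma adjusted p = 0.6 and 0.33).

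Levels of different genes were compared per kb of the longest annotated transcript. In *Ctrl* lines *Zic5* was highest with 44.4 ± 1.59 (SD, n = 3) normalized counts per kb, followed by *Zic2* with 39.3 ± 1.08 (SD, n = 3), *Sox4* with 25.6 ± 2.44 (SD, n = 3) and *Foxd3* with 25.4 ± 4.15 (SD, n = 3). *Otx2* had 10.9 ± 0.22 (SD, n = 3), *Grhl2* 5.05 ± 0.53 (SD, n = 3), *Sox3* 2.91 ± 3.49 (SD, n = 3) and *Fgf5* 0.80 ± 0.40 (SD, n = 3). In this order *Sox4* and *Foxd3* overlapped, as did *Grhl2* with *Sox3* and *Sox3* with *Fgf5*, and the other neighbours did not. In *Tet iTKO* lines *Zic2* came first with 48.2 ± 10.7 (SD, n = 3) per kb and overlapped *Zic5* with 40.6 ± 1.59 (SD, n = 3), followed by *Foxd3* with 31.0 ± 2.24 (SD, n = 3). *Otx2* with 19.9 ± 5.27 (SD, n = 3) overlapped *Sox4* with 17.5 ± 5.42 (SD, n = 3), whereas in *Ctrl* lines *Sox4* was above *Otx2* in every line. *Grhl2* with 6.67 ± 2.83 (SD, n = 3) overlapped *Sox3* with 5.81 ± 3.84 (SD, n = 3), and *Fgf5* with 1.33 ± 0.83 (SD, n = 3) stayed last. These orders were not tested.

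**Figure D2:**
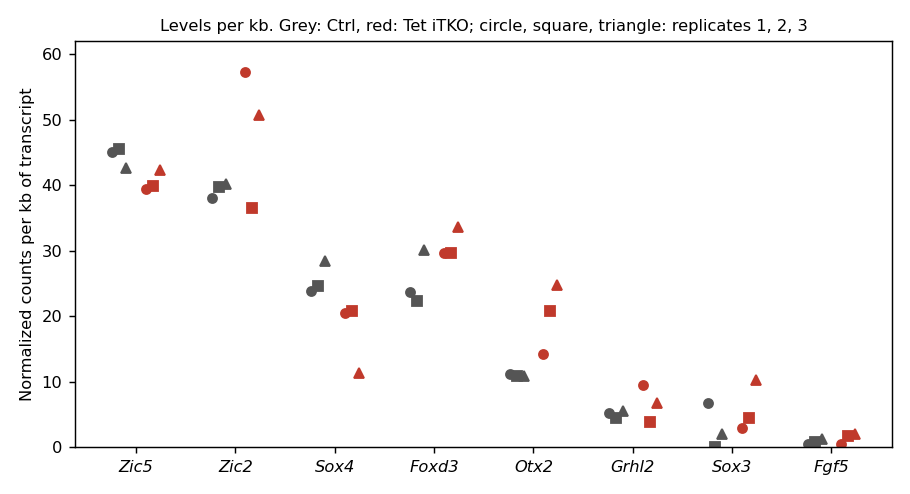
Normalized counts per kb of transcript (vertical axis, from 0) of the 8 epiblast factors found, ordered by their *Ctrl* mean, in 3 *Ctrl* (grey) and 3 *Tet iTKO* (red) lines. *Zic5* and *Zic2* have the highest levels and *Fgf5* the lowest in both groups, and *Otx2* and *Sox4* are apart in *Ctrl* but not in *Tet iTKO* lines.

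Of 16 other genes linked to formative pluripotency, all of which were tested, 9 were higher and 1 was lower in *Tet iTKO* lines, or 56.2% and 6.2%, beside the 16.4% and 18.4% of all genes tested. Their median log2 fold change was 0.24. *Sall2*, a zinc finger gene that the study itself named for these libraries, as it did *Otx2*, showed 17, 35 and 25 normalized counts across *Ctrl* lines, against 174, 186 and 164 across *Tet iTKO* lines (log2 fold change 2.77, standard error 0.24, limma adjusted p = 1.9e-11). *Lef1*, a nuclear effector of Wnt signalling, had 104, 131 and 122 against 273, 273 and 295 (log2 fold change 1.23, standard error 0.14, limma adjusted p = 3.2e-09). Neither gene overlapped between groups. *Pim2*, a kinase gene, rose by 1.04 on the log2 scale and *Tcf15*, a bHLH factor gene that primes mESC for differentiation, by 0.49. A smaller rise was found for *Nodal* (0.34), the ligand that maintains the primed epiblast. *Dnmt3a* and *Dnmt3b*, the de novo DNA methyltransferase genes that are induced at the exit from the naive state, rose by 0.25 and 0.24, *Etv5* by 0.23 and *Tead2* by 0.16. *Dnmt3l*, the gene of their catalytically inactive partner, fell by 0.49, with 849 ± 65.3 (SD, n = 3) normalized counts across *Ctrl* lines, against 603 ± 36.6 (SD, n = 3) across *Tet iTKO* lines (limma adjusted p = 3.8e-06). After correction for GC content and length, 6 of the 16 were higher and 2 lower, beside 12.7% and 13.5% of all genes, with a median of 0.12. The calls of *Dnmt3a*, *Dnmt3b*, *Etv5* and *Tead2* were lost, with corrected log2 fold changes of -0.065, 0.075, 0.13 and -0.12. When limma was run with no trend in its variances, 3 of the 16 were higher. The call of *Nodal* was also lost without *Ctrl* replicate 3 (limma adjusted p = 0.067), that of *Tcf15* without *Ctrl* replicate 1 (0.054) or *Tet iTKO* replicate 1 (0.074), and that of *Tead2* in each fit that left out a line other than *Ctrl* replicate 3.

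**Figure D3:**
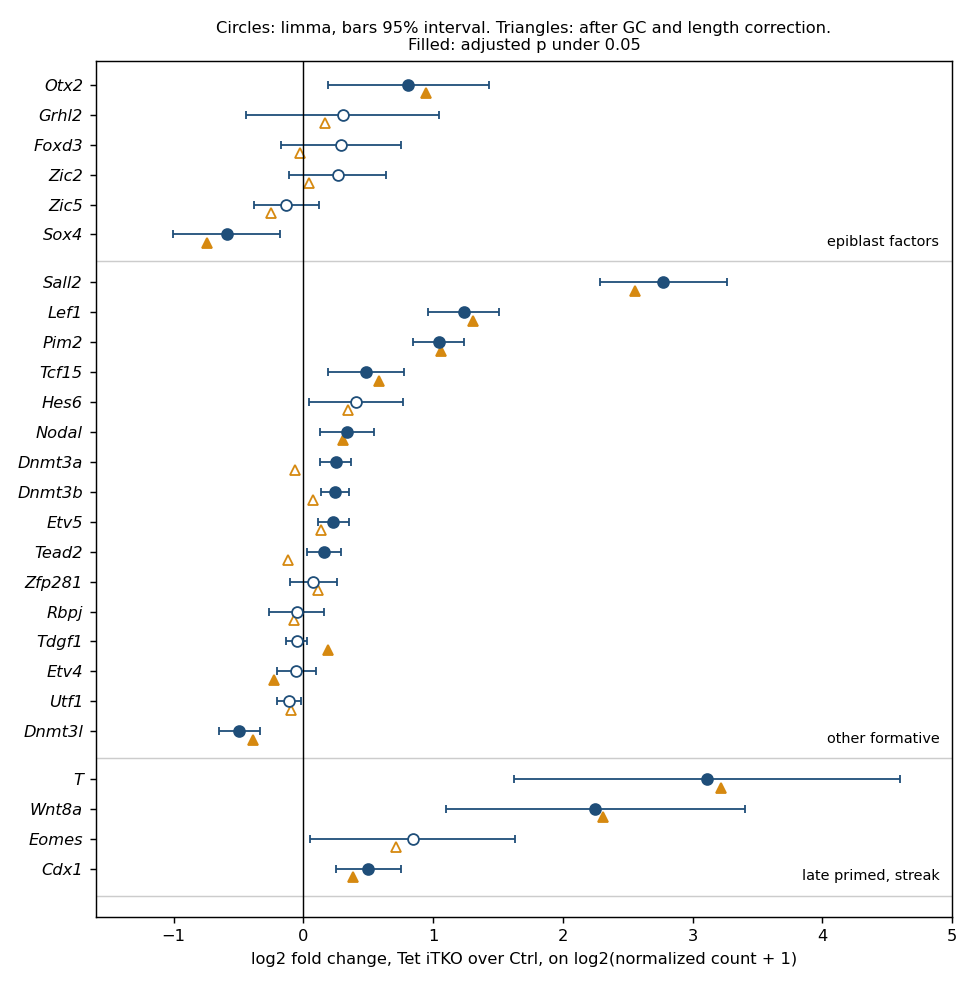
Log2 fold change of *Tet iTKO* over *Ctrl* lines (horizontal axis) for the tested epiblast factors (6), other formative genes (16) and late primed and streak genes (4), from limma with 95% intervals (circles, n = 3 lines per group) and after correction for GC content and length (triangles), filled where the adjusted p is under 0.05. *Otx2* (0.81) and *Sox4* (-0.59) are filled in both fits, and *Sall2* (2.77) and *T* (3.11) lie farthest to the right.

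Among 14 genes of the late primed epiblast and primitive streak, 4 reached the mean of 10, of which 3 rose, where 16.4% of all genes tested were higher. Of these 3, *T* and *Wnt8a* reached the mean of 10 only through their *Tet iTKO* values, so that this count does not bear on the list as a whole. *T*, the gene of Brachyury, showed 0, 12 and 1 normalized counts across *Ctrl* lines, against 24, 26 and 24 across *Tet iTKO* lines (log2 fold change 3.11, limma adjusted p = 0.00097, or 0.061 with no trend in the variances). *Wnt8a*, a ligand of the streak, had 6, 2 and 7 against 38, 20 and 21 (log2 fold change 2.25, limma adjusted p = 0.002). *Cdx1*, a homeobox gene of the posterior embryo, rose from 178 ± 13.0 (SD, n = 3) to 252 ± 3.46 (SD, n = 3), by 0.50 on the log2 scale (limma adjusted p = 0.0015). *Eomes*, a T-box gene of the streak and of trophoblast, did not overlap between groups but did not pass the test (log2 fold change 0.84, limma adjusted p = 0.091). Its value was 0.43 without *Ctrl* replicate 1 (limma adjusted p = 0.4) and 1.10 without *Ctrl* replicate 2, where it passed. Of the 10 genes under the filter, 5 did not overlap and were higher in *Tet iTKO* lines. This was so for 21.2% of the genes tested, but the share among genes under the filter was not computed. *Wnt3* was at 0 in all *Ctrl* lines and had 11, 9 and 10 in the *Tet iTKO* lines, and *Fgf8*, an FGF ligand of the streak, was at 0 in all *Ctrl* lines and had 13, 10 and 7. Against a floor of 3 normalized counts per library, both were at least 3.33-fold higher. *Mixl1* had 3, 3 and 1 against 8, 8 and 12, *Sp5* 1, 1 and 5 against 8, 6 and 10, and *Gsc* 8, 2 and 8 against 11, 11 and 16. *Cer1* and *Mesp1* were at 0 in all 6 libraries, and *Evx1*, *Foxa2* and *Lhx1* at or under 3. These values are a few reads per library.

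**Figure D4:**
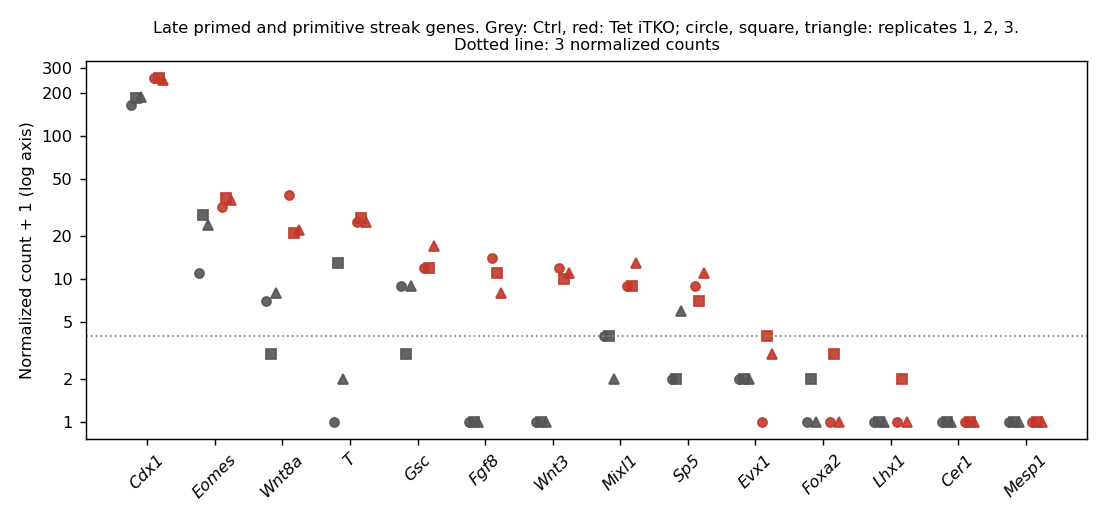
Normalized counts plus 1 (vertical log axis) of 14 late primed and primitive streak genes in 3 *Ctrl* (grey) and 3 *Tet iTKO* (red) lines, with a dotted line at 3 normalized counts. *Wnt3* and *Fgf8* are at 0 in all *Ctrl* lines and between 7 and 13 in the *Tet iTKO* lines, and the 5 genes at the right are at or under 3 in all lines.

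Genes of the naive state went both ways. Of 12 tested, 3 were higher (*Klf4* by 0.32, *Dppa3* by 0.31 and *Esrrb* by 0.28 on the log2 scale) and 4 were lower, with log2 fold changes of -0.41 for *Nr0b1*, -0.35 for *Zfp42*, -0.30 for *Nanog* and -0.24 for *Tbx3*. Among all genes tested, 16.4% were higher and 18.4% lower. The median of the 12 naive genes was 0.08. After correction it was 0.03, with 1 higher and 3 lower, beside 12.7% and 13.5% of all genes. After correction *Klf4* (0.21), *Esrrb* (0.066), *Zfp42* (-0.11) and *Nanog* (-0.11) no longer passed, while *Dppa3* was at 0.79 and *Tbx3* at -0.48. The call of *Dppa3* was lost without *Ctrl* replicate 1, *Tet iTKO* replicate 1 or *Tet iTKO* replicate 2 (limma adjusted p = 0.12, 0.089 and 0.054), that of *Zfp42* without *Tet iTKO* replicate 2 (0.11), and that of *Tbx3* without *Ctrl* replicate 1 or 3 or *Tet iTKO* replicate 2 or 3 (0.053, 0.16, 0.083 and 0.13). With no trend in the variances in limma, *Nr0b1* kept its call (adjusted p = 0.019) and the other 6 genes named here lost theirs. Of 8 tested genes that respond to ERK, the kinase below MEK, none was higher and 12.5% were lower, beside 16.4% and 18.4% of all genes tested. The lower gene was *Dusp6*, an ERK phosphatase gene (log2 fold change -0.33, limma adjusted p = 0.047). Its call was lost after correction and without any line other than *Ctrl* replicate 3 and *Tet iTKO* replicate 2. Of 5 tested FGF ligand and receptor genes, the receptor gene *Fgfr1* was higher, with 308, 287 and 278 normalized counts across *Ctrl* lines, against 498, 430 and 452 across *Tet iTKO* lines (log2 fold change 0.66, limma adjusted p = 1.5e-06, and 0.37 after correction, limma adjusted p = 0.0036). *Fgf4*, the main FGF of mESC, had 1398 ± 62.7 (SD, n = 3) and 1469 ± 57.5 (SD, n = 3) in the respective groups, at a log2 fold change of 0.07 (95% interval -0.05 to 0.19, limma adjusted p = 0.38). *Fgf2* was at 0 in all 6 libraries.

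Of 16 paralogs listed, 14 were found and 5 tested. Of these 5, 1 was higher and 2 lower, beside 16.4% and 18.4% of all genes tested. Counts of so few genes were not tested against these shares. *Grhl1* showed 5, 6 and 4 normalized counts across *Ctrl* lines, against 26, 29 and 31 across *Tet iTKO* lines (log2 fold change 2.32, limma adjusted p = 0.00055), while *Grhl3* had 92, 102 and 126 against 75, 61 and 39 (log2 fold change -0.90, limma adjusted p = 0.002, or 0.059 with no trend in the variances). *Grhl1* reached the mean of 10 only through its *Tet iTKO* values. *Sox11*, like *Sox4* a SoxC gene, had 40, 35 and 32 against 11, 15 and 16 (log2 fold change -1.30, limma adjusted p = 0.0085), whereas *Sox12*, the other SoxC gene, had 98, 89 and 111 against 110, 90 and 120 (log2 fold change 0.10, 95% interval -0.27 to 0.47, limma adjusted p = 0.72) and -0.34 after correction. *Crx*, *Pou3f3*, *Pou3f4*, *Zic1* and *Zic4* were at 0 in all 6 libraries, and *Foxd1*, *Foxd2* and *Foxd4* at or under 3. *Otx1*, under the filter, had 0, 4 and 2 against 13, 5 and 6.

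**Figure D5:**
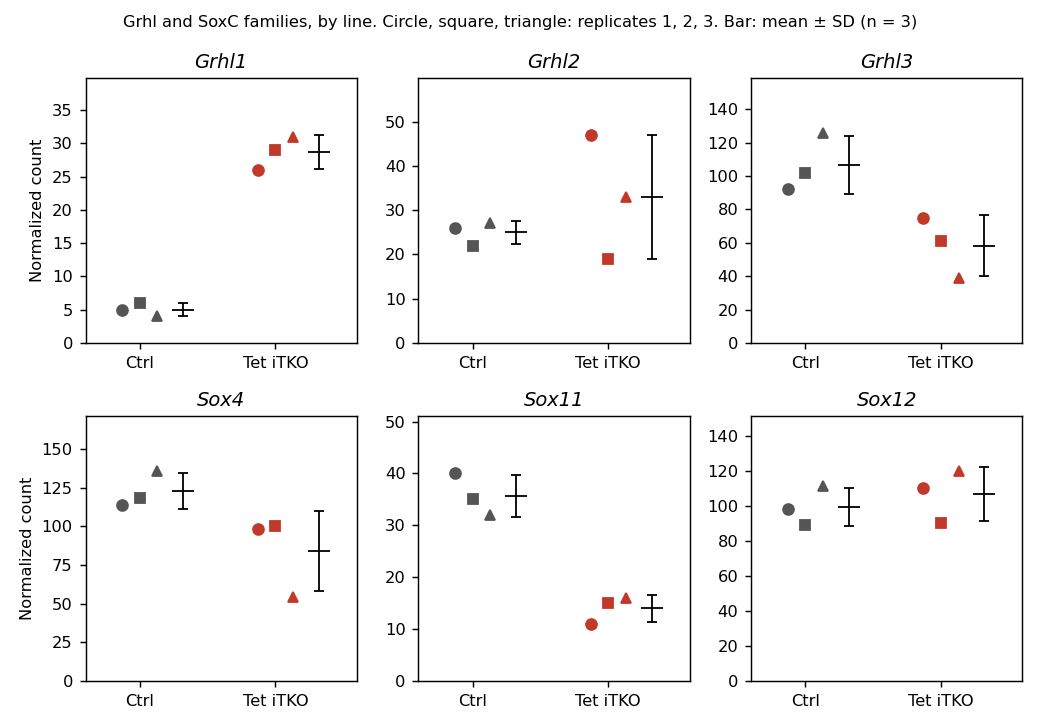
Normalized counts (vertical axes, each from 0) of Grainyhead and SoxC genes in 3 *Ctrl* (grey) and 3 *Tet iTKO* (red) lines, with the mean ± SD of each group. *Grhl1* (4 to 6 against 26 to 31) is higher in *Tet iTKO* lines, and *Grhl3*, *Sox4* and *Sox11* are lower.

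Several of the 9 genes are also used in later or other lineages, whose markers were listed for comparison. Of 11 neural markers found, 2 were tested, *Tubb3* (log2 fold change 0.00, limma adjusted p = 0.98) and *Nes* (0.83, limma adjusted p = 0.089, and 0.48 after correction), and neither passed, while *Pax6* had 4, 2 and 1 normalized counts across *Ctrl* lines, against 14, 11 and 11 across *Tet iTKO* lines. None of 10 neural crest markers reached the filter, and their summed level was 10 to 15 in *Ctrl* and 33 to 40 in *Tet iTKO* lines. *Msx2*, of the highest mean, had 3, 3 and 1 against 12, 19 and 4. *Tfap2a*, next by mean, had 3, 5 and 8 against 6, 3 and 4, with a lower mean in *Tet iTKO* lines. *Pax7* and *Tfap2b* were at 0 in all 6 libraries. Of 5 tested primitive endoderm markers, *Col4a1* and *Gata4* were higher and *Sparc* lower, beside 16.4% and 18.4% of all genes tested. The call of *Gata4* was lost after correction and without *Ctrl* replicate 1, *Tet iTKO* replicate 1 or *Tet iTKO* replicate 3. Of 3 tested trophoblast markers *Tfap2c* was lower, where 18.4% of all genes tested were lower. The counts of these 2 short lists were not tested against those shares. Of the 7 tested markers of mESC identity, 28.6% were higher and 42.9% lower, beside 16.4% and 18.4% of all genes tested. *Epcam*, the gene of the sorted CD326, and *Sall4* were higher, and *Dppa5a*, *Nanog* and *Pou5f1* lower. The log2 fold change of *Pou5f1* was -0.29. Its call was lost with quantile normalization (-0.076, limma adjusted p = 0.2) and with no trend in the variances (limma adjusted p = 0.066). The study reported comparable *Pou5f1* and *Nanog* levels in both groups and unaltered OCT4 protein. After correction *Sall4* and *Nanog* did not pass and *Dppa5a* was higher (log2 fold change 0.11, limma adjusted p = 0.02). The part of these lists, and of the feeder markers, in the values of the 8 factors was not tested.

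Of the nearest genes with a mean of at least 10 on either side, those found for *Otx2*, *Zic2*, *Zic5*, *Sox4*, *Foxd3* and *Grhl2* did not pass the test. Genes with a lower mean were not considered, so these need not be adjacent genes, and *Mrs2* lay 3930 kb from *Sox4*. *Naa11*, 862 kb from *Fgf5*, fell by 0.71 on the log2 scale, and *Hnrnpd*, 1680 kb away on its other side, rose by 0.28 (limma adjusted p = 0.011 and 0.0037). *Ldoc1*, 816 kb from *Sox3*, rose by 1.72 (limma adjusted p = 0.0096). *Ldoc1* reached the mean of 10 only through its *Tet iTKO* values, with means of 7.0 in *Ctrl* and 24.7 in *Tet iTKO* lines.

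As a description over 6 libraries that share their 2 groups, the genes with a mean of at least 50 whose log2 values were most like those of *Otx2* were *Nhlrc2* (Pearson's r 0.994) and *Zfp335* (0.992), among 240 of 7819 genes with an r above 0.9. For *Sox4* they were *Qtrt2* (0.991) and *Scpep1* (0.989), among 98 such genes, for *Zic5* *Mrrf* and *Fbxw2* (both 0.992), among 231, and for *Foxd3* *Kat6b* (0.998) and *Tm7sf2* (0.991), among 123. *Zic2* had 37 such genes, led by *Tbcd* (0.981) and *Ibtk* (0.980), and *Grhl2* 22, led by *Rida* (0.988) and *Slc9a3r1* (0.987).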

How the data were processed

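RNA-Seq of 6 mESC lines was analysed. Per the labels and the study's methods, the authors made unstranded Smart-Seq2 libraries without molecular identifiers, kept unique STAR alignments of 50-base read pairs, counted them per gene with HTSeq 0.7.1 in its stranded setting, and divided by DESeq2 1.26.0 size factors in R 3.5.2; the submitters' processing notes name mm9. The deposited values, normalized counts rounded to whole numbers, carry the unit score and are not read counts, so no count test was run. Read depth per library is not given; 3 normalized counts was taken as the floor, for counting error only.

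GENCODE M21 (GRCm38) gave symbols for 20775 identifiers, lengths, GC content and neighbours. limma 3.58.1 (R 4.3.3, lmFit, eBayes with trend) was run on log2(value + 1) for genes whose mean reached 10, adjusted after Benjamini and Hochberg. The correction subtracted a loess fit (span 0.3) on GC content and log2 length. The script was checked on simulated data. Exact permutation tests used NumPy 2.4.6, Spearman's rho SciPy 1.17.1 and tables pandas 2.3.3, in Python 3.11.15.

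Named were the 9 genes, up to 4 called genes per direction of each list by fold change (the 2 of highest mean where none was called), all *Tet* and Y-linked genes listed, chromosomal neighbours, and the 2 most alike genes; other names were added after values were seen. A gene of the lists is not reported here and was left out of their counts. Members and lists were chosen with earlier results of these data known. Lines are taken as the replicates, and same-numbered lines come from different embryos. The study's legend speaks of independent experiments, and the labels do not say whether same-numbered lines shared one.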

Additional observations from a re-analysis of the deposited data

How the results depend on the processing

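Of the 6 tested factors, the direction of *Otx2*, *Zic2*, *Zic5*, *Sox4* and *Grhl2* held under all alternatives run (pseudocounts of 0.5 and 4, no filter, a mean of at least 50, trimmed means of M values, quantile normalization, no trend, replicate block, correction for GC content and length with and without that block, and fits without each line), as far as a gene passed the filter. The number of factors higher was 0 with no filter, with a mean of at least 50 (which leaves *Otx2* out) and with quantile normalization, and the number lower was 0 with no filter and with no trend. *Otx2* had a limma adjusted p of 0.074 with no filter and 0.11 with quantile normalization, and *Sox4* of 0.1 with no filter and 0.15 with no trend. Without each line in turn, factors higher ranged from 0 to 1 and factors lower from 0 to 1, genes higher from 1335 to 1635 and genes lower from 1642 to 1722, or 420 to 546 and 116 to 138 at a log2 fold change of 1, other formative genes higher from 7 to 9 and lower from 1 to 2, streak genes higher from 3 to 4, and the difference in the log2 ratio of *Zic2* to *Zic5* from 0.24 to 0.57. With no trend, 1075 genes were higher and 1217 lower, and 3 other formative genes were higher. With a mean of at least 50, 129 genes were higher and 56 lower at a log2 fold change of 1, and 1 streak gene was higher; with quantile normalization, 253 were lower at that fold. With no filter, 5 streak genes were higher. Other formative genes lower numbered 2 with trimmed means, with the replicate block and with the correction, with or without the block. The correction, with or without the block, turned *Foxd3* (-0.026), *Dnmt3a* (-0.065), *Tead2* (-0.12), *Sox12* (-0.34), *Sall4* (-0.002) and *Dppa5a* (0.11) around. *Tubb3*, near 0, became -0.02 with trimmed means, -0.047 with the correction, and -0.059, -0.020 and -0.023 without *Ctrl* replicate 1, *Tet iTKO* replicate 1 and *Tet iTKO* replicate 2 (range over the 6 such fits -0.059 to 0.053), and the log2 difference of *Fgf5* became -0.065 with quantile normalization. The cause of these changes was not tested, except that a higher filter tests fewer genes.

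Same-numbered lines did not deviate together, with correlations of their deviations from the group means of 0.001, -0.005 and -0.003, so no pairing by number was seen. With a replicate block 1762 genes were higher and 1980 lower, and *Otx2* and *Sox4* were called as without it (limma adjusted p = 0.04 and 0.018). Levels near 3 normalized counts, as for *Fgf5*, cannot show a difference at this depth.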
